A study of Ovis aries with 2 samples.

Results

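The genes described here encode the proteins of the cytosolic ribosome. They were taken by name as every gene symbol of the deposited feature lists that starts with RPL or RPS and a digit, with RPLP and a digit, or with RPSA, leaving out the RPS6 kinases. The rule found 53 symbols on 63 of the 26478 features, 35 of the large subunit (RPL and RPLP) and 18 of the small subunit (RPS and RPSA). RPS12 has 2 features, RPL17 has 4 and RPS25 has 7, and the UMIs of these features were summed. RPS19BP1 enters by its name only, since it encodes a nucleolar protein that binds RPS19. Of the 81 protein-coding symbols of the same pattern in the RefSeq annotation of the sheep genome, 30 are not among the feature symbols, such as RPL5, RPS3 and RPS19, so each summed share below is a lower bound on the UMIs of ribosomal protein genes. FAU and RACK1, which also encode parts of the ribosome, lie outside the naming rule and are given apart.

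The ribosome joins a small subunit, which reads the mRNA, to a large subunit, which forms the peptide bond, and each subunit is built in the nucleolus from ribosomal RNA and about equal amounts of each of its proteins. The mRNAs of ribosomal proteins start with a run of pyrimidines, and their translation is switched on and off together by nutrient and growth signals through mTOR. They are abundant and make up much of the poly(A) RNA of growing cells. Red blood cell precursors need a large supply of ribosomes before they fill with globin mRNA, and loss of 1 copy of any of several ribosomal protein genes causes Diamond-Blackfan anaemia.

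The study compared 16-day (E16) embryos of Ujumqin sheep, the long-tailed control, with those of Hulunbuir short-tailed sheep. Cells were pooled from the embryos of each breed, and 1 droplet library of mRNA 3′ ends was made per breed, after the extraembryonic tissue had been dissected away and the digested cells treated with red blood cell lysis buffer. With 1 library per breed there is no replicate check, so breed, pool and library cannot be told apart, no test was made, and all intervals are 95% intervals of the counting error alone. Among the cells that had at least 200 genes and under 10% of their UMIs on MT- genes, 14554 were kept from the Ujumqin library (209576780 UMIs, median 9519 per cell) and 9583 from the Hulunbuir library (128654663 UMIs, median 11879). The libraries shared 61 barcode sequences, of which 50 were kept in both.

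Kept cells were sorted into groups by lists of marker genes, called gates here. A cell entered a gate when the gate's genes summed to at least 100 counts per 1000000 UMIs (CPM) with at least 3 UMIs from at least 2 of these genes, and when it passed no other gate; gates of at least 20 cells were used. The erythroid gate held 36.31% of the kept Ujumqin cells (5284 cells) and 4 Hulunbuir cells, although red cells had been lysed in both. The endothelium and cardiomyocyte gates were present in both libraries, and at least 7 of their listed check genes, which the gate does not use, stood 3-fold above the other kept cells in each. The gates on MEOX1, PAX3 and other somite genes, on PRRX1, TBX4 and other mesenchyme genes, on TBX6, MSGN1 and other presomitic genes and on EPCAM, CDH1 and other gut endoderm genes are named by their genes only. Of the check genes, 4 of 8 passed that comparison for the neural tube gate of Hulunbuir and 4 of 7 for its caudal progenitor gate. For the MEOX1/PAX3 gate only 1 of 6 check genes in Ujumqin and 2 of 6 in Hulunbuir passed that comparison, and for the TBX6/MSGN1 gate 1 of 4. For the PRRX1/TBX4 gate 6 of 8 passed in Ujumqin and 0 of 8 in Hulunbuir. For the EPCAM/CDH1 gate of Ujumqin 4 of 6 passed, namely KRT8, KRT18, KRT19 and CLDN4, while SOX17 and ISL1 did not. This gate was led by KRT7, UPK3A and WFDC2 and had its listed genes FOXA2 and SHH at 1 UMI each. No gate took 8707 Ujumqin cells, whose median was 1486 UMIs, and 7000 Hulunbuir cells, whose median was 10113.5 UMIs.

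Ribosomal protein genes supplied 20.47% of the UMIs of the kept Ujumqin cells and 25.33% of those of the kept Hulunbuir cells, a difference of 4.86 percentage points (4.85 to 4.87). The order of the libraries turned when the erythroid gate was left out. The remaining kept cells gave 26.03% in Ujumqin and 25.33% in Hulunbuir, 0.70 points less in Hulunbuir (difference -0.699, interval -0.71 to -0.687). Per cell, the Ujumqin library had a lower and an upper peak of the share, and the Hulunbuir library had 1 peak. Cells under 20% made up 40.06% of the kept Ujumqin cells, and 4865 of these 5830 cells lay in the erythroid gate. In Hulunbuir 1.92% of the kept cells were under 20%.

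**Figure D1:**
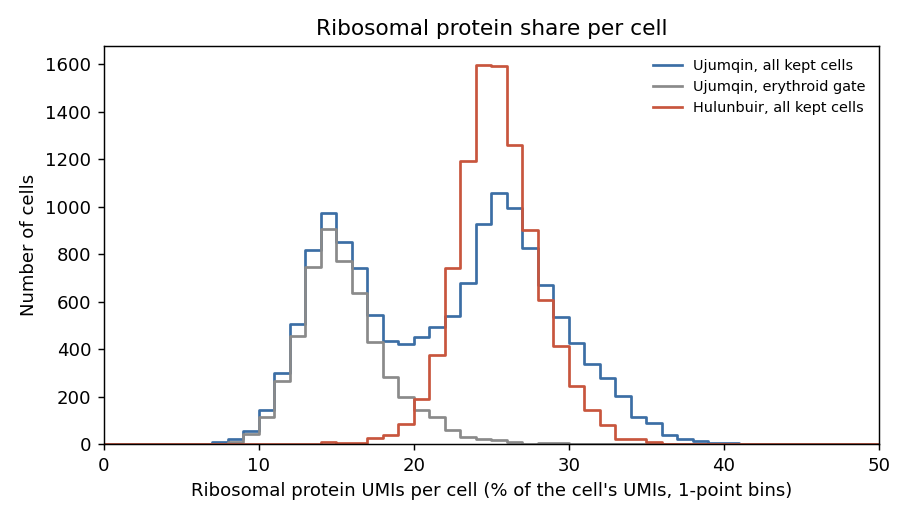
Number of kept cells (vertical axis) by the percentage of their UMIs on ribosomal protein genes (horizontal axis, 1-point bins) in the Ujumqin library, its erythroid gate and the Hulunbuir library. The erythroid gate, with a median cell at 15.1%, forms the lower Ujumqin peak, and the rest of the Ujumqin cells overlap the Hulunbuir cells.

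The share was lowest in the erythroid and extraembryonic endoderm gates of Ujumqin. It was 15.8% in the Ujumqin erythroid gate, where the median cell had 15.13% and the 5th and 95th percentiles of the cells were 11.46% and 21.05%. It was 20.49% in the 116 Ujumqin cells of the extraembryonic endoderm gate, which expressed plasma protein genes such as AHSG, TTR and AFP. Features outside the ribosomal protein set that each took over 2% of the UMIs of a gate or library held 43.4% of the erythroid UMIs, chiefly 3 features without a symbol, and 24.79% of the extraembryonic endoderm UMIs, with AHSG alone at 11.46%. These features passed 2% only in these gates or over the kept Ujumqin cells, so leaving them out raises mainly these gates by construction. Counted over the remaining UMIs without MT- genes, ribosomal protein genes took 28.99% in the erythroid gate and 28.63% in the extraembryonic endoderm gate. The other Ujumqin gates ranged from 25.87% to 30.73% on the same scale. On that scale the kept cells gave 28.33% in Ujumqin and 26.36% in Hulunbuir.

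Among the Hulunbuir gates the neural tube gate (119 cells, led by PAX6 and SOX2) had the highest share. Its value was 29.41% (29.34 to 29.48). The cardiomyocyte gate followed with 26.87%, the caudal progenitor gate, led by FGF8 and CDX2, with 26.57%, the MEOX1/PAX3 gate with 26.14%, the TBX6/MSGN1 gate with 25.42%, the PRRX1/TBX4 gate with 24.56% and the endothelium gate with 24.34%. Below the neural tube gate, the cells of neighbouring gates in this order overlapped widely. For example, the quartiles were 24.98% and 28.86% in the cardiomyocyte gate and 24.96% and 28.39% in the caudal progenitor gate. The neural tube quartiles, 27.84% and 31.28%, overlapped those of the cardiomyocyte gate only in part. They lay above those of the PRRX1/TBX4 gate, 23.41% and 25.86%. In Ujumqin the MEOX1/PAX3 gate was highest with 29.42% in 35 cells, ahead of the cardiomyocyte gate with 27.62%, the EPCAM/CDH1 gate with 27.56%, the endothelium gate with 27.26% and the PRRX1/TBX4 gate with 24.73%. This order changed when the 10% of cells with the most UMIs were left out. The MEOX1/PAX3 gate then had 27.52% and the cardiomyocyte gate 27.62%, and the endothelium gate had 25.02% and the PRRX1/TBX4 gate 25.55%.

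In all 4 gates found in both libraries the share was lower in Hulunbuir than in Ujumqin. In the endothelium gate it was 27.26% in 147 Ujumqin cells and 24.34% in 387 Hulunbuir cells (difference -2.93 points, -2.97 to -2.88). In the MEOX1/PAX3 gate it was 29.42% and 26.14% (difference -3.28 points, -3.39 to -3.16). The difference was -0.745 points in the cardiomyocyte gate (-0.995 to -0.496) and -0.166 points in the PRRX1/TBX4 gate (-0.214 to -0.118), both small beside the spread between cells. The size rested on the cells with the most UMIs: without the 10% of each library's cells with the most UMIs the difference was -0.609 points in the endothelium gate and -1.53 points in the MEOX1/PAX3 gate, against -0.838 points in the PRRX1/TBX4 gate. Taken as the mean of the single cells, the cardiomyocyte difference turned to 0.516 points. The 44 Ujumqin endothelial cells with at least 50000 UMIs had a share of 28.35%, the 54 with 20000 to 50000 UMIs one of 25.7% and the 31 with 10000 to 20000 UMIs one of 24.48%, whereas the 37, 160 and 135 Hulunbuir endothelial cells of the same UMI ranges had 24.41%, 24.27% and 24.42%. The share of MT- UMIs in the same ranges, from the most UMIs to the fewest, was 3.408%, 4.688% and 5.37% in Ujumqin, lower where the ribosomal protein share was higher, and 5.576%, 5.169% and 5.505% in Hulunbuir. Over the whole gate it was 3.928% in Ujumqin and 5.356% in Hulunbuir. Across the 147 Ujumqin endothelial cells, which share 1 library, the rank correlation of the ribosomal protein share was 0.384 with UMIs and -0.427 with the MT- share. With MT- genes left out of the total, the endothelium difference was -2.67 points. The part of depth and of the MT- share in the difference was not tested.

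**Figure D2:**
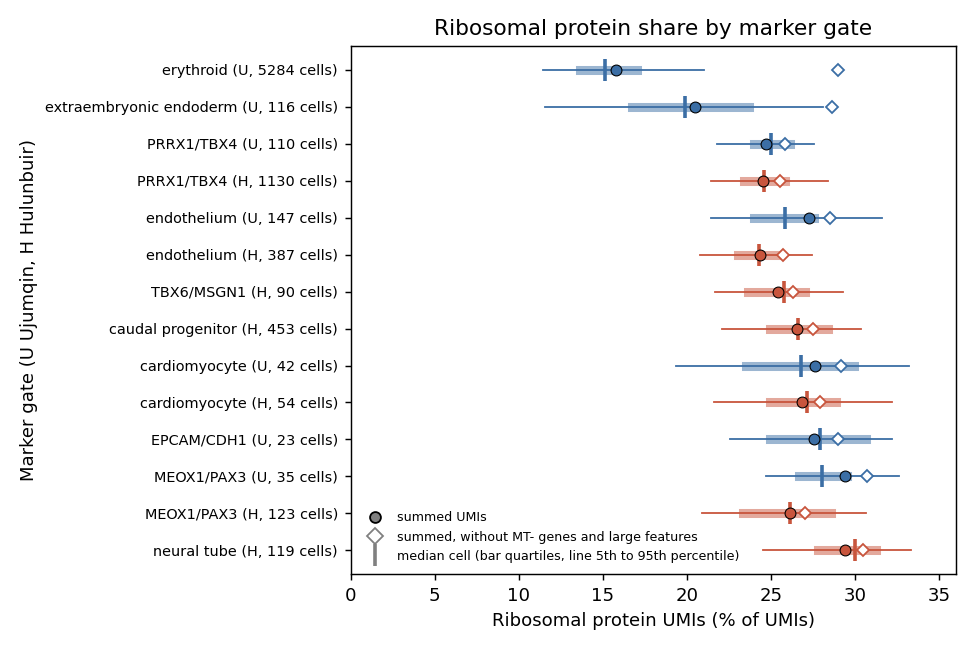
Percentage of UMIs on ribosomal protein genes (horizontal axis) in each marker gate of the Ujumqin (U, blue) and Hulunbuir (H, red) libraries. Circles are summed UMIs, open diamonds leave MT- genes and features over 2% out of the total, ticks are median cells, bars quartiles and lines the 5th to 95th percentiles; the erythroid circle is at 15.8% and its diamond at 28.99%.

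The large subunit genes held a nearly fixed part of the ribosomal protein UMIs. This part was 63.42% over the kept Ujumqin cells and 62.98% over the kept Hulunbuir cells, and it stayed between 62.47% and 64.13% over the 14 gates. The low share of the erythroid gate was thus spread over both subunits, with 63.14% of its ribosomal protein UMIs on large subunit genes. In both libraries 43 of the 53 symbols exceeded 1000 CPM. The rank correlation of the 53 levels between the libraries was 0.986, a description of genes that share a library and differ in how well their 3′ ends are annotated.

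The 10 symbols with the highest mean level held 37.2% of the summed level. UMIs count molecules at their 3′ ends, so the levels below do not grow with transcript length, but reads that match several genes equally were not counted, which lowers genes with near-identical copies by an unknown amount. Among them RPLP1 and RPLP0, which form the stalk of the large subunit that recruits elongation factors, had 8545 and 8067 CPM in the kept Ujumqin cells and 9928 and 9838 CPM in the kept Hulunbuir cells. RPS27A, which is made as a fusion with ubiquitin, had 7986 and 9360 CPM. RPS18, RPL8, RPL7A, RPS12 and RPL32 ranged from 6565 to 7954 CPM in Ujumqin and from 8292 to 9865 CPM in Hulunbuir. The 10 genes were all higher over the kept Hulunbuir cells, as were 48 of the 52 symbols with at least 20 UMIs, beside 87.3% of all 13419 symbols so measured.

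At the low end stood RPL34, RPL3L and RPL10L. RPL34 is a core protein of the large subunit, yet its feature held 477 UMIs (2.28 CPM) in Ujumqin and 342 (2.66 CPM) in Hulunbuir. RPS26, at 129.5 and 156.8 CPM, and RPL17, at 272 and 306.7 CPM, were also far below the other core proteins. Where copies of a gene share its reads, such a level says little about the gene. RPL3L replaces RPL3 in adult heart and skeletal muscle. It had 14 UMIs in the kept Ujumqin cells (0.0668 CPM) and 13 in the kept Hulunbuir cells (0.101 CPM). The cardiomyocyte gate of either library held none. With only 148591 UMIs in Ujumqin and 709083 in Hulunbuir, this gate is too shallow to show a level that low. RPL3 had 5249 CPM in the Ujumqin and 6314 CPM in the Hulunbuir cardiomyocyte gate. RPL10L, a testis copy of RPL10, had 0 UMIs in Ujumqin, which allows a level of up to 0.0176 CPM, and 1 UMI in Hulunbuir. RPL26L1, a close relative of RPL26, had 55.0 CPM in Ujumqin and 103.8 CPM in Hulunbuir, against 2728 CPM of RPL26 in Ujumqin and 3153 CPM in Hulunbuir. RPS27L, a relative of RPS27 known as a p53 target, had 267.8 and 254.9 CPM, and RPL36AL, a relative of RPL36A, 825.8 and 821.7 CPM.

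To compare the libraries over cells of like gates, levels were set side by side over the 334 Ujumqin and 1694 Hulunbuir cells of the 4 shared gates. The mix of gates differed: the endothelium gate supplied 58.3% of these UMIs in Ujumqin and 28.4% in Hulunbuir, and the PRRX1/TBX4 gate 32.8% and 64.7%, so the summed ratios carry differences between gates as well as between libraries. Of the 53 symbols, 51 had at least 20 UMIs there, all but RPL3L and RPL10L. None of the 51 was 2-fold higher or lower in Hulunbuir, beside 17.3% of all 10295 symbols that were 2-fold higher and 4.59% that were 2-fold lower. The median log2 ratio of the 51 was -0.13, with a range of -0.50 to 0.65, while the median of all symbols was 0.33. In 39 of the 51 the level was lower in Hulunbuir, beside 28.8% of all symbols, and in 36 of them the counting interval lay below 0. The intervals were not counted over all symbols. They are narrow for the ribosomal protein symbols, which had a median of 219233 UMIs against 316 for all measured symbols, so small ratios also clear 0. The Ujumqin gates held more UMIs per cell (median 24642 against 18279.5), and CPM gives the level of a gene only relative to all other RNA of the gate.

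Within the gates the picture was alike. In the endothelium gate 0 of 51 symbols passed 2-fold (all symbols 18.2% higher and 3.91% lower), with a median log2 ratio of -0.18. In the MEOX1/PAX3 gate 0 of 50 did (13.2% higher and 2.22% lower), with a median of -0.19. In the PRRX1/TBX4 gate 0 of 51 did (13.0% higher and 4.23% lower), with a median of -0.06. In the cardiomyocyte gate 0 of 50 did (30.0% higher and 3.34% lower), with a median of -0.09, although RPS26 came close with 249 CPM in Ujumqin and 125.5 CPM in Hulunbuir (log2 ratio -0.99). That gate held only 148591 UMIs in Ujumqin, with a median of 2253.5 per cell, and 3.425% of them came from the features that dominate the erythroid and extraembryonic gates. In each gate fewer ribosomal protein symbols than symbols at large passed 2-fold, but they also held more UMIs, with a median of 219233 per symbol over the shared gates of both libraries against 316 for all measured symbols, and so had less counting error.

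The 2 symbols that were higher in Hulunbuir in all 4 gates were RPS6 and RPS2, of 50 measured in each gate, beside 35.0% of all 2834 symbols so measured. The count depended on the scale: 12 were higher in all 4 gates when each level was taken as a part of the ribosomal protein UMIs, and 7 when the 10% of cells with the most UMIs were left out. RPS6 is the small subunit protein that S6 kinases phosphorylate. In the endothelium gate it had 2247 CPM in Ujumqin and 3382 CPM in Hulunbuir, in the cardiomyocyte gate 2692 and 4359 CPM, in the MEOX1/PAX3 gate 2819 and 4291 CPM, and in the PRRX1/TBX4 gate 2476 and 3818 CPM. Every Hulunbuir gate was above every Ujumqin gate: the 7 Ujumqin gates ranged from 1548 to 2819 CPM and the 7 Hulunbuir gates from 3382 to 5180 CPM. Over the 4 shared gates the log2 ratio was 0.65 (0.63 to 0.67), the largest of the set, and among cells of no gate it was 0.66, with 2561 CPM in Ujumqin and 4041 CPM in Hulunbuir.

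RPS2, a protein near the mRNA entry of the small subunit, behaved alike. It had 1263 CPM in the Ujumqin and 1740 CPM in the Hulunbuir endothelium gate, and its 7 Ujumqin gates lay between 923.4 and 1577 CPM while its 7 Hulunbuir gates lay between 1740 and 2277 CPM. Its log2 ratio was 0.47 over the shared gates (0.45 to 0.50) and 0.47 among cells of no gate. As a part of the ribosomal protein UMIs, RPS6 took 0.756% to 1.01% in the Ujumqin gates and 1.39% to 1.76% in the Hulunbuir gates, and RPS2 took 0.463% to 0.584% and 0.715% to 0.794%. The gates of a library come from 1 pool of embryos and 1 preparation, so these 7 values are not replicates of a breed.

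**Figure D3:**
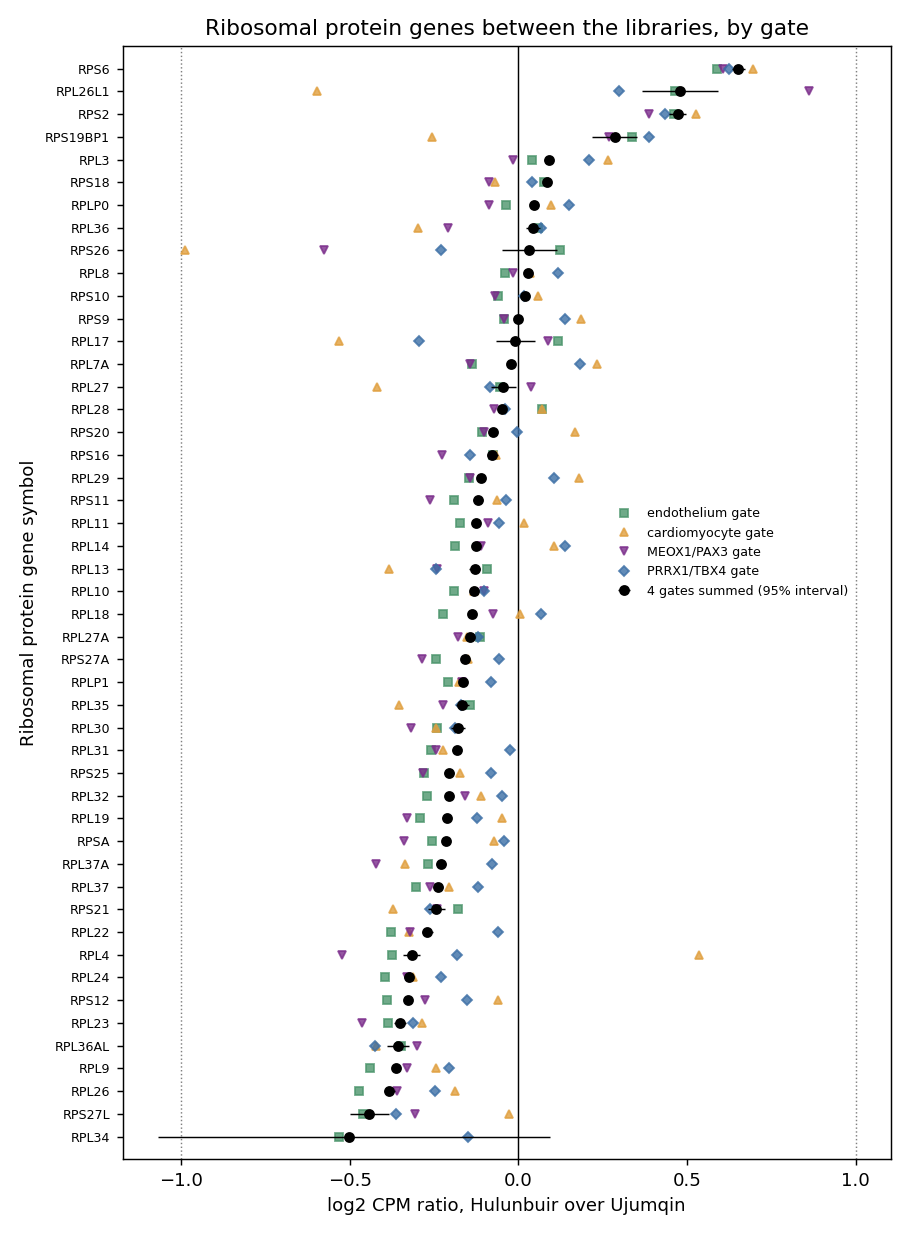
The log2 ratio of CPM, Hulunbuir over Ujumqin (horizontal axis), of 48 of the 51 measured ribosomal protein symbols (vertical axis), over the 4 shared gates summed (black, with the 95% counting interval) and within each gate (coloured marks); dotted lines mark 2-fold. RPS6 and RPS2 are to the right of 0 in every gate, and no mark lies beyond 2-fold.

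The other symbols with the highest ratios were less even over the gates. RPL26L1 had 72.7 CPM in the shared Ujumqin gates and 101.3 CPM in the Hulunbuir ones (log2 ratio 0.48, 0.37 to 0.59), with ratios of 0.86 in the MEOX1/PAX3 gate and -0.60 in the cardiomyocyte gate. RPS19BP1 had 200.6 and 244.4 CPM (0.28, 0.22 to 0.35) and was lower in Hulunbuir only in the cardiomyocyte gate. RPL3, which lies next to the site of peptide bond formation, had 5602 and 5961 CPM (0.09) and was higher in 3 of the 4 gates.

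Lower in Hulunbuir in all 4 gates were 25 of the 50 symbols, beside 6.53% of all symbols. They included RPSA, RPLP1, RPL9 and RPL26, and 17 were still lower in all 4 gates when each level was taken as a part of the ribosomal protein UMIs. RPS27L had 319.4 CPM in the shared Ujumqin gates and 235.1 CPM in the Hulunbuir ones (log2 ratio -0.44, -0.50 to -0.38). RPL26 had 3923 and 3008 CPM (-0.38), RPL9 had 7150 and 5564 CPM (-0.36), and RPL36AL had 1035 and 808.2 CPM (-0.36). RPL34 had the lowest ratio (-0.50), but from 38 UMIs in Ujumqin and 83 in Hulunbuir, and its interval of -1.07 to 0.09 spanned 0.

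Of the 18 listed Diamond-Blackfan anaemia genes, 8 are among the symbols. Their log2 ratios over the shared gates were -0.13 for RPL11, 0.03 for RPS26, 0.02 for RPS10, -0.38 for RPL26, -0.18 for RPL31, -0.04 for RPL27, -0.17 for RPL35 and -0.14 for RPL18. All 8 lay between -0.38 and 0.03, inside the range of -0.50 to 0.65 of the 51 measured symbols. None of the 8 passed 2-fold, but neither did any of the 51, so this is no trait of the Diamond-Blackfan genes.

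The erythroid gate, which had the lowest share, was set against the sum of the other Ujumqin gates, so a lower level of most symbols there follows from the share itself. The features over 2% described above held 43.4% of the erythroid UMIs and 6.215% of those of the other gates. Without them and MT- genes the share was 28.99% in the erythroid gate and 28.06% in the other gates. Each ratio below is one of CPM and so is relative to all RNA of the gate, these features included. Each ratio also depends on the mix of the other gates. Of their 15588774 UMIs, 6396577 came from the endothelium gate, 3647286 from the extraembryonic endoderm gate and 3598742 from the PRRX1/TBX4 gate. All 51 measured symbols were lower in the erythroid gate, beside 86.4% of all 10375 symbols. Of the 51, 3 were at least 2-fold lower, beside 52.8% of all symbols. No symbol was 2-fold higher, beside 5.01% of all symbols. The median log2 ratio of the 51 was -0.70, which is less of a drop than the median of all symbols, -1.08. The 3 symbols past 2-fold were RPS12, with 11550 CPM in the other gates and 4721 CPM in the erythroid gate (-1.29), RPL26, with 3719 and 1829 CPM (-1.02), and RPL22, with 3193 and 1595 CPM.

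At the other end, some genes nearly kept their level in the erythroid gate. RPL35 had 2610 CPM in the other gates and 2561 CPM in the erythroid gate (log2 ratio -0.03, -0.04 to -0.01). RPLP0 had 8550 and 7281 CPM (-0.23) and RPS18 8292 and 6941 CPM (-0.26). Of the 8 Diamond-Blackfan genes, RPL35 and RPL26 thus marked the smallest drop of the whole set and the second largest, and RPL18 (-0.91), RPS10 (-0.78), RPL31 (-0.72), RPL27 (-0.64), RPL11 (-0.61) and RPS26 (-0.52) lay between them.

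**Figure D4:**
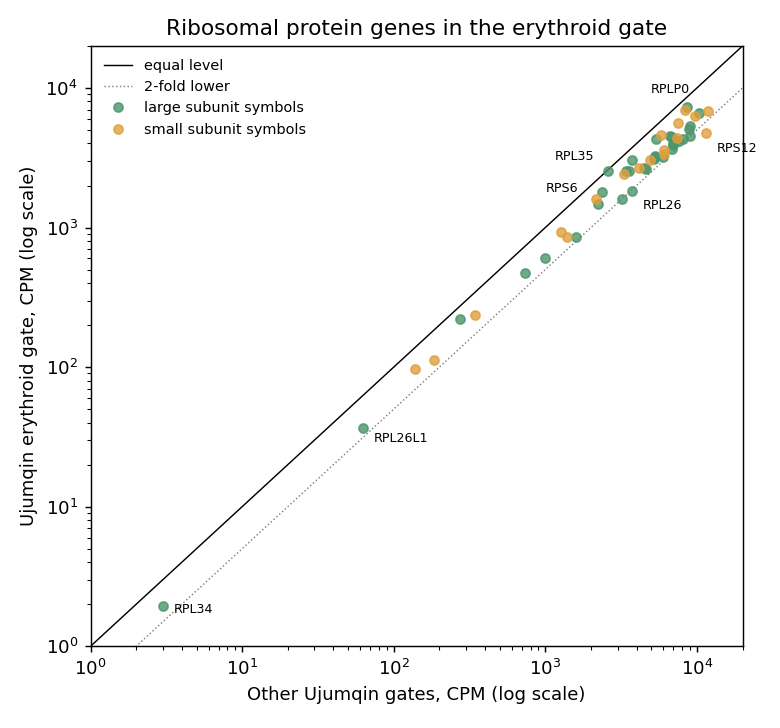
Level of the 51 measured ribosomal protein symbols in the Ujumqin erythroid gate (vertical axis, CPM, log scale) against the other Ujumqin gates together (horizontal axis, CPM, log scale), coloured by subunit. All points lie under the solid line of equal level, RPL35 nearest to it, and RPS12 lies under the dotted 2-fold line.

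In Hulunbuir the gate with the highest share was set against the largest gate to describe which genes carry the share. The neural tube gate was chosen for that share, so the direction of the ratios follows from the choice and is no result. Relative to the PRRX1/TBX4 gate, 46 of 51 symbols were higher in the neural tube gate (37.2% of all 9110 symbols), and 42 had a counting interval above 0. Intervals were not counted over all symbols here either. The median log2 ratio was 0.29, against -0.23 for all symbols. Only RPL34 passed 2-fold upward (1.02), from 8 UMIs in the neural tube gate, and its interval of -0.26 to 2.10 spanned 0; 7.89% of all symbols were 2-fold higher and 18.5% were 2-fold lower. RPL23 had 2926 CPM in the PRRX1/TBX4 gate and 4123 CPM in the neural tube gate (0.50) and RPL24 4446 and 6193 CPM (0.48). RPS19BP1 (-0.33) and RPL26L1 (-0.26) went the other way.

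The make-up of the ribosomal protein UMIs varied little between the gates of a library. Over the 48 symbols with at least 100 UMIs in every Hulunbuir gate, the highest and lowest parts differed by a median log2 range of 0.22, and over 45 such symbols in Ujumqin by 0.35. In Hulunbuir none reached 2-fold. RPS19BP1 had the widest range, from 0.0636% in the MEOX1/PAX3 gate to 0.114% in the endothelium gate, and RPL28 came next, from 2.22% in the neural tube gate to 3.31% in the endothelium gate. RPL36AL, RPL13 and RPS27L followed with log2 ranges of 0.51, 0.41 and 0.40.

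In Ujumqin 2 symbols reached 2-fold. RPL4 took 0.358% of the ribosomal protein UMIs in the cardiomyocyte gate, which rests on few UMIs, and 0.737% in the MEOX1/PAX3 gate. RPS12, whose introns carry small nucleolar RNA genes, took 5.98% in the extraembryonic endoderm gate, where it was at 12260 CPM, 5.69% in the EPCAM/CDH1 gate, where it was at 15690 CPM, and 2.99% in the erythroid gate. RPL35 was the reverse case, with 1.62% in the erythroid gate and 0.910% in the EPCAM/CDH1 gate, and RPS20 took 2.93% in the erythroid gate and 1.87% in the extraembryonic endoderm gate. RPL36AL ranged from 0.274% in the MEOX1/PAX3 gate to 0.449% in the PRRX1/TBX4 gate.

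**Figure D5:**
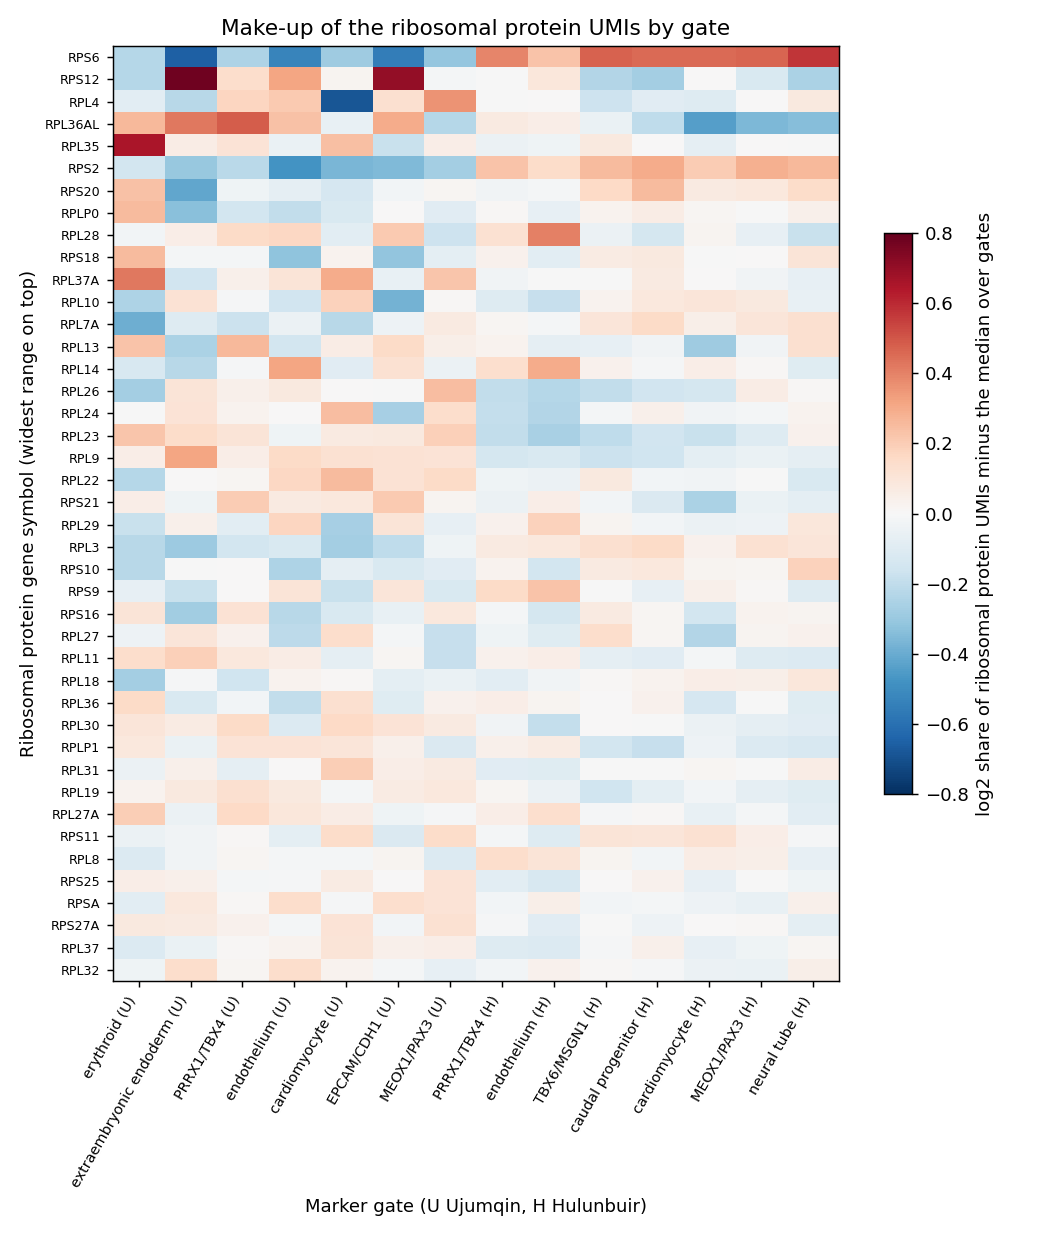
Part of the ribosomal protein UMIs taken by each of 42 symbols (rows, widest range on top) in the 14 gates (columns, U Ujumqin, H Hulunbuir), as log2 difference from the row's median (colour, red above and blue below). RPS6 and RPS2 are blue in the Ujumqin gates and red in the Hulunbuir gates, RPS12 is dark red in the extraembryonic endoderm and EPCAM/CDH1 gates, and RPL35 in the erythroid gate.

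Of the ribosomal proteins outside the naming rule, FAU, made as a fusion with a ubiquitin-like protein, had 4668 CPM in the shared Ujumqin gates and 4358 CPM in the Hulunbuir ones (log2 ratio -0.10). RACK1, a scaffold on the small subunit, had 3213 and 3700 CPM (0.20).

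Other genes that build or serve the ribosome were described with the same lists in each gate. The medians of the 31 ribosome biogenesis genes, such as the nucleolar enzymes FBL and DKC1, were 0.66 in the endothelium gate, 0.29 in the cardiomyocyte gate (19 measured), 0.21 in the MEOX1/PAX3 gate (26 measured) and 0.23 in the PRRX1/TBX4 gate, on the log2 scale of Hulunbuir over Ujumqin. The medians of all symbols in the same gates were 0.36, 0.45, 0.27 and 0.16, so the biogenesis genes stood above that median in the endothelium and PRRX1/TBX4 gates and below it in the others. Over the shared gates summed, their median was 0.54, with 3 of 31 at least 2-fold higher and 0 lower, beside the 17.3% and 4.59% of all symbols. FBL had 558.8 CPM in Ujumqin and 716.2 CPM in Hulunbuir, and DKC1 had 203.2 and 310.1 CPM.

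Translation factors and mitochondrial ribosomal proteins had medians of 0.16 and 0.27 over the shared gates summed, below the 0.33 of all symbols. Of 34 translation factors 1 was 2-fold higher and 0 were lower, and of 66 mitochondrial ribosomal proteins 6 were higher and 0 lower, both shares under the 17.3% of all symbols that were higher. The summed level of the translation factors was 17910 CPM in Ujumqin and 17470 CPM in Hulunbuir, against the sign of their median. Of 14 stress and early response genes 3 were 2-fold higher and 4 lower, beside 17.3% and 4.59% of all symbols. Their median was -0.12 over the summed gates. In the single gates it was 0.31 in the endothelium (12 measured), 0.32 in the cardiomyocyte (5 measured), 0.14 in the MEOX1/PAX3 (7 measured) and 0.08 in the PRRX1/TBX4 gate (11 measured). These medians cover different genes, so the change of sign was not read further.

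In the neural tube gate relative to the PRRX1/TBX4 gate, the ribosomal proteins outside the naming rule had a median of 0.12 (3 measured). The median of all symbols was -0.23. Translation factors summed to 17660 CPM in the neural tube gate and 17650 CPM in the PRRX1/TBX4 gate, although their median was negative. The medians of ribosome biogenesis, translation factors and mitochondrial ribosomal proteins lay on the side of the median of all symbols. They were -0.52 for ribosome biogenesis (0 of 31 higher, 4 lower), -0.28 for translation factors (0 of 34 higher, 4 lower) and -0.38 for mitochondrial ribosomal proteins (1 of 66 higher, 4 lower), beside 7.89% of all symbols higher and 18.5% lower. In the erythroid gate the medians were -0.50 for ribosome biogenesis (4 of 31 lower), -0.61 for translation factors (6 of 33 lower) and -0.61 for mitochondrial ribosomal proteins (14 of 66 lower), beside 52.8% of all symbols lower and a median of all symbols of -1.08.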

How the data were processed

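Single-cell RNA was measured in 1 pooled E16 library per breed. The authors made the deposited counts, whole UMIs per gene and cell, with Cell Ranger against the Rambouillet v1.0 genome; the submitters' processing notes list Cell Ranger 3.1.0, Seurat 3.2.0 and R 3.6.1, while the file header names Cell Ranger 5.0.0. From these counts scipy 1.17.1 and pandas 2.3.3, run under Python 3.11.15, computed the share of UMIs on ribosomal protein genes, CPM and log2 ratios over summed cells, with exact binomial or conditional Poisson 95% intervals that cover counting error only. Features of 1 symbol were summed; the first feature alone, planned as the main choice, became the alternative because those of RPS25 and RPL17 held almost no UMIs. Ratios needed at least 20 UMIs over both groups. No doublet caller was run; cells that passed more than 1 gate (76 in Ujumqin, 194 in Hulunbuir) stayed out of the gates. Gate thresholds were set after the levels of the marker lists were known and without use of the ribosomal protein genes. The genes and lists were chosen with earlier results of these data known, and counts of symbols with 1 direction in all shared gates were added after the data were seen. Values are given for all symbols as counts and for the 10 highest, the paralog pairs, the 5 highest and 5 lowest ratios, the 5 widest ranges of a library and the Diamond-Blackfan genes. A few of these genes are not reported here. RefSeq's gene table of the assembly ARS-UI_Ramb_v3.0 was used for names only. The computation was tested on simulated data.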

Additional observations from a re-analysis of the deposited data

Results flagged for a closer look

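Barcodes outside the kept cells also held ribosomal protein UMIs. In Ujumqin their share was 9.29% in the 998 barcodes under 200 genes and 13.83% in the 1507 barcodes at or over the limit on MT- UMIs. In Hulunbuir it was 6.534% in 153 barcodes and 15.7% in 973 barcodes. These values were given because the barcodes enter no comparison above; all 4 lie below the 20.47% and 25.33% of the kept cells.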

How the results depend on the processing

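No paired analysis was possible because each breed has 1 library and no test was made. Without a cell filter the share of the kept cells was 20.35% in Ujumqin and 25.12% in Hulunbuir, with differences of -3.105 points in the endothelium and -0.0929 in the cardiomyocyte gate. With at least 500 genes the Ujumqin share was 20.39%. Under 5% MT- UMIs the shares were 20.38% and 25.54%, with differences of -3.422 (endothelium) and -0.0871 (PRRX1/TBX4). Without MT- genes in the total they were 21.06% and 26.35%, with -2.666 (endothelium), -0.229 (cardiomyocyte) and -3.467 (MEOX1/PAX3), and without the large features too 28.33% and 26.36%, with -2.797, -1.247, -3.684 and, in the PRRX1/TBX4 gate, -0.2904. As means of single cells the shares were 22.01% and 25.47%, with -1.559 (endothelium), 0.5157 (cardiomyocyte, the only change of sign among the differences), -2.106 (MEOX1/PAX3) and -0.3271 (PRRX1/TBX4); RPL34 was then 2-fold lower (1 symbol), and 5 symbols were higher in all 4 gates. Without the 10% of cells with most UMIs they were 18.95% and 25.49%, with -0.6092 (endothelium), -1.529 (MEOX1/PAX3) and -0.838 (PRRX1/TBX4), and 7 symbols were higher in all 4 gates. With the first feature of each symbol they were 20.09% and 24.88%, and the endothelium difference was -2.844. A gate threshold 2 times higher gave -2.364 (MEOX1/PAX3) and left too few Ujumqin cells in the PRRX1/TBX4 gate; one 2 times lower gave -2.267 (cardiomyocyte), -3.409 (MEOX1/PAX3) and -0.4104 (PRRX1/TBX4), and 4 symbols higher in all 4 gates. At 1.5-fold, RPS6 was higher (1 symbol). As parts of the ribosomal protein UMIs, 12 symbols were higher and 17 lower in all 4 gates. The causes were not tested. Of 110 ratios of named symbols under alternatives 88 stayed within their counting interval. Of the gate shares under alternatives only 40 stayed within their narrower intervals and 96 moved outside.

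Depth limits RPL34, RPL3L and RPL10L, the Ujumqin cardiomyocyte gate and genes whose copies share reads. Each breed is 1 pool, so no difference between the libraries can be set against a spread between embryos.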
